A study of Mus musculus with 12 samples.

Results

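The genes described here encode the NF-kappa-B transcription factors, the CARD10 signalling complex above them and a few of their targets and inhibitors, in mouse subcutaneous colorectal tumours. The 10 genes were taken by symbol from the 17875 genes of the deposited tables, and all 10 passed the filter on low counts that left 13453 genes. They were chosen because Card10 was lower in tumours of stressed mice, so every value in the comparison of stress with control is a description with no test. The same holds for Card10 in both comparisons of a dose with stress, since these reuse the stress libraries.

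Poly(A) RNA was sequenced in 12 libraries of tumour tissue, in 4 groups of 3. All groups carried the subcutaneous tumour: the control group had the tumour alone, the stress group was also under chronic stress, and the low-dose and high-dose groups had the tumour, chronic stress and a low or high dose of Xiao-chai-hu decoction, which is prepared from several herbs. The doses in numbers, the tumour cell line, the type of stressor and the strain, sex and age of the mice are not given in the sources used here. Nothing there says that the replicates of a group are separate animals either, so a p-value reflects only how far these libraries spread, which may be technical.

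NF-kappa-B is a family of dimers that inhibitor proteins hold in the cytoplasm until a signal leads to the destruction of the inhibitor. In the classical branch the inhibitor I-kappa-B alpha, encoded by Nfkbia, is degraded and dimers of RELA and p50, the product of Nfkb1, enter the nucleus, while in the alternative branch the precursor encoded by Nfkb2 is cut to p52, the partner of RELB. CARD10, also called CARMA3, is the scaffold that joins BCL10 and the protease MALT1 downstream of some G-protein-coupled and growth factor receptors in cells outside the immune system. CARD9 is a related scaffold of myeloid cells. NF-kappa-B activity is set largely by protein degradation and movement between compartments, which RNA levels do not measure.

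The libraries held 16734741 to 17950195 counts each. Transcripts of skeletal muscle stood highest in control replicate 1, low-dose replicate 3 and high-dose replicate 2, with scores (the mean centred log2 CPM of 18 markers, where CPM are counts scaled to library size) of 3.36, 2.66 and 3.92. Low-dose replicate 2 stood apart along gene length: across 13110 genes, which are not independent replicates, its deviation from the mean library had a Spearman rho of -0.47 with merged exon length, against -0.15 to 0.29 in the other libraries. Its median deviation was 0.34 on the log2 scale for genes of up to 2000 bases and -0.34 for genes above 10000 bases. Of the 13 colorectal epithelial markers in the tables, 11 had a median under 1 TPM, a level scaled to transcript length and library size, and 6, among them Krt8, Krt18 and Krt20, a median of 0. Lgals4, an intestinal galectin, was the highest of them at a mean of 14.5 TPM, and Cdh1, E-cadherin, averaged 3.80 TPM. Leukocyte markers summed to 406 to 883 TPM. In bulk tissue, fewer cells of a type and less RNA per cell cannot be told apart.

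Upstream sequence is shown for the scaffold gene and for the genes of the main inhibitors, because the feedback genes are textbook NF-kappa-B targets and Card10 is the gene whose level differed most. RefSeq windows of the 250 bases before a transcript start (GRCm38.p6) were found for 7 of the 10 genes, with 10 windows in all; Malt1, Nfkb1 and Relb had no entry. The 10-base kappa-B consensus, searched on both strands with matches on either strand of the same bases counted once, occurred in 2382 of 32851 windows (7.25%). It occurred in 6 of the 10 windows: those of Bcl10 and Nfkbia, all 3 of Nfkb2 and 1 of the 2 of Tnfaip3. The other window of Tnfaip3 and those of Card10, Icam1 and Rela had no match. No other motif was searched, and no match says only that these letters are absent from the window. The following stretches run 5′ to 3′ on the strand of the gene, hold no annotated exon of it, and carry the kappa-B matches in capitals.
Nfkbia chr12:55492648-55492897 (minus strand): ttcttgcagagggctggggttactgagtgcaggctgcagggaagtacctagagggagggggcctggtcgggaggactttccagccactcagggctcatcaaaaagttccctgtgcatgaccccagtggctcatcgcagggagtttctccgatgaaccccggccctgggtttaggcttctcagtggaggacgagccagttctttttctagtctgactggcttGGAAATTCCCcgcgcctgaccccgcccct
Tnfaip3 chr10:19015411-19015547 (minus strand): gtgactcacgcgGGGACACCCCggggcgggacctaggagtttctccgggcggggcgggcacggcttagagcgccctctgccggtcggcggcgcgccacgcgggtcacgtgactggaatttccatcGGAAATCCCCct
Card10 chr15:78803073-78803292 (minus strand): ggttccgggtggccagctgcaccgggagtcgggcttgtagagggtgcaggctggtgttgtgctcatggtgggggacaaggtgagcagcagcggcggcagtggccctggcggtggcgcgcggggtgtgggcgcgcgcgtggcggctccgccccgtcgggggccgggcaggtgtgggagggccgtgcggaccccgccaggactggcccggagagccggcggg

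The match of Nfkbia lay 29 to 20 bases before the start. Tnfaip3 had matches at 125 to 116 and at 12 to 3 bases before it. The Card10 stretch had no match and held 76.8% G and C, against 59.2% for that of Nfkbia. In the most upstream window of Nfkb2, the matches GGGAATTCCC and GGGGCTTTCC lay 39 and 11 bases before the start, and Bcl10 had GGGAGATCCC at 241 bases. A match describes the letters only and does not show that a factor binds there.

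Per length of transcript, the 4 NF-kappa-B subunit genes, Nfkbia and Bcl10 were more abundant than Card10 in all 12 libraries, whereas Malt1, Tnfaip3 and Icam1 lay closer to it. Nfkb2 had the highest mean level over the 12 libraries at 193 TPM. Nfkbia followed at 121 TPM, Rela at 84.9, Nfkb1 at 78.7, Bcl10 at 68.4 and Relb at 31.7 TPM. Malt1 stood at 12.3 TPM, Tnfaip3 at 9.40, Icam1 at 8.59 and Card10 lowest at 5.67 TPM. The order was the same in all 12 libraries for Nfkb2 over Nfkbia, Nfkbia over Rela, Bcl10 over Relb and Relb over Malt1. Neighbours were less separated elsewhere: Rela exceeded Nfkb1 in 9 libraries, Nfkb1 exceeded Bcl10 in 11, Malt1 exceeded Tnfaip3 in 10, Tnfaip3 exceeded Icam1 in 9 and Icam1 exceeded Card10 in 9. Among the other CARD scaffolds, Card9 averaged 5.64 TPM in controls and Card14, the skin form, 0.05 TPM.

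The genes differed in how much they varied between libraries of one group. The within-group SD of log2 CPM was 0.065 for Rela, the main activating subunit, and 0.066 for Bcl10, the adaptor of the complex. Of all genes tested, 98.6% and 98.5% had a larger SD, and the median SD was 0.206. Icam1 varied most at 0.546, followed by Card10 at 0.340 and Malt1 at 0.338. Counts per library ran from 101 to 308 for Icam1, 129 to 412 for Card10 and 333 to 680 for Malt1. Relb, at 498 to 764 counts, had an SD of 0.168, and Tnfaip3, at 265 to 510, an SD of 0.281. Genes with more counts have less counting noise, and its part in these SDs was not tested.

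**Figure D1:**
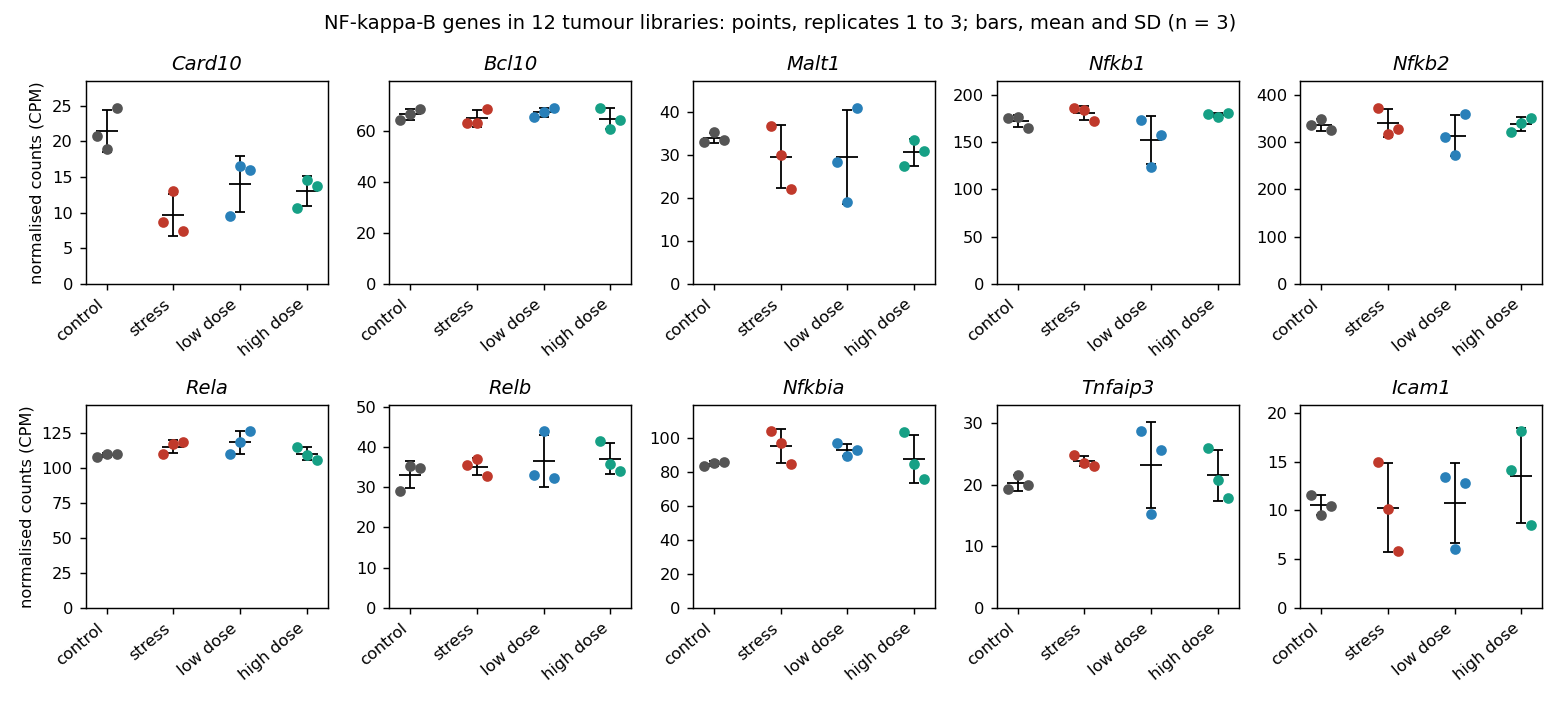
CPM of each of the 10 genes in every library (points) by group, with bars for the group mean and SD (n = 3), each panel with its own vertical axis starting at 0. The 3 control points of Card10 lie above all 9 points of the stressed groups, while the groups of Rela and Bcl10 lie at nearly the same height.

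Card10 was lower in every stressed tumour library than in every control. It stood at 20.8, 18.9 and 24.7 CPM in the control libraries and at 8.69, 13.1 and 7.39 CPM under stress. In the low-dose libraries it stood at 9.55, 16.6 and 15.96 CPM, and in the high-dose libraries at 10.7, 14.6 and 13.7 CPM. The lowest control, 18.9 CPM, thus lay above the highest of the 9 stressed libraries, 16.6 CPM, whereas the 3 stressed groups overlapped each other. Of all genes tested, 73 (0.543%) had all stressed libraries below all controls. This pattern chose the set, so nothing is read from that share.

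Between stress and control Card10 had a log2 fold change of -1.15 (SE 0.25), a level of 45.2% of control, and ranged from -1.42 without stress replicate 2 to -0.98 without stress replicate 3. Between low dose and stress it was 0.53 (SE 0.25), or 0.80 without stress replicate 2. Between high dose and stress it was 0.42 (SE 0.25), or 0.69 without stress replicate 2 and 0.27 without stress replicate 3. The doses differed from each other by -0.11 (high minus low, SE 0.25, 95% confidence interval -0.64 to 0.43), with an adjusted p of 0.915 by edgeR's quasi-likelihood test with Benjamini-Hochberg adjustment. That interval spans folds of 0.641 to 1.34, and the difference changed sign without low-dose replicate 2 (0.02).

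Some markers of cell types also differed between these groups, and their part in the Card10 values was not tested. All 18 skeletal muscle markers had lower log2 fold changes under stress than in controls (median -2.28). Their scores overlapped, at 3.36, -1.59 and 0.18 in controls and 1.07, -2.17 and -1.98 under stress. Against stress, 15 were higher and 3 lower at the low dose, and all 18 were higher at the high dose. Of 10 leukocyte markers tested, 9 were higher and 1 lower under stress than in controls. The 10 fibroblast markers summed to 2354 to 3221 TPM in controls and to 4126 to 5126 under stress, without overlap, and to 2123 to 7311 at the low dose and 1803 to 6723 at the high dose. Most of that sum was Col3a1, a fibrillar collagen, at 1643 to 2286 TPM in controls and 3142 to 4008 under stress. By log2 fold change between stress and control, 8 of the 10 markers were higher and 2 lower. Postn was among the lower, at 76.4 to 101 TPM in controls and 37.5 to 61.4 under stress. The mean centred log2 CPM of the 10 markers overlapped, at -0.18, -0.11 and -0.41 in controls and -0.01, -0.20 and 0.12 under stress. Krt14, a keratin of basal epithelium, stood at 413 to 474 TPM in controls, 218 to 378 under stress, 251 to 350 at the low dose and 245 to 481 at the high dose. It supplied nearly all of the summed level of 10 skin keratinocyte markers, which was 417 to 480 TPM in controls, 228 to 383 under stress, 255 to 353 at the low dose and 250 to 485 at the high dose; 6 of the 10, among them Krt5, Krt1 and Lor, had a median of 0. Colorectal epithelial markers summed to 15.2 to 19.1 TPM in controls and to 14.01 to 28.9 under stress, so that those ranges overlapped. Within the 9 libraries of stressed mice, the score of the 3 epithelial markers tested and Card10 had a Pearson r of 0.69 and a Spearman rho of 0.48, and without the 2 libraries farthest from the median score r was 0.49. These are descriptions with no test, since the stress values of Card10 chose the set. Controls formed a separate cluster. Over all 12 libraries, also without a test, r of Card10 with the epithelial score was 0.46 and rho 0.34. Without the 2 libraries farthest from the median score r was 0.25. With each group centred on its own mean r over the 12 libraries was 0.68.

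The partners of Card10 showed no such separation of the groups. Bcl10 stood at 64.2, 66.8 and 68.8 CPM in controls, 63.3, 63.1 and 68.9 under stress, 65.6, 67.6 and 69.1 at the low dose and 69.3, 61.0 and 64.4 at the high dose. All 4 groups overlapped. Bcl10 had a log2 fold change of -0.03 (SE 0.08) between stress and control, 0.05 (95% interval -0.13 to 0.23) between low dose and stress, and -0.00 (-0.19 to 0.18) between high dose and stress.

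Malt1, the protease, stood at 33.0, 35.2 and 33.3 CPM in controls, 36.6, 30.0 and 22.1 under stress, 28.3, 19.1 and 40.9 at the low dose and 27.3, 33.3 and 31.0 at the high dose. The low-dose group spanned all other groups, and the stress group spanned the control and high-dose groups. Malt1 has the longest merged exons of the set, 18040 bases, and its lowest value fell in low-dose replicate 2. Its log2 fold change was -0.20 (SE 0.24) between stress and control, -0.01 (95% interval -0.52 to 0.51) between low dose and stress and 0.05 (-0.47 to 0.56) between high dose and stress. Without low-dose replicate 2 the low-dose value was 0.24, and without low-dose replicate 3 it was -0.32.

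Per length, the adaptor outnumbered the scaffold in every library and by more in the stressed groups. The ratio of Bcl10 to Card10 TPM was 7.36 to 9.38 in controls, 12.8 to 24.7 under stress, 10.8 to 18.2 at the low dose and 11.1 to 17.3 at the high dose. The ratio of Malt1 to Card10 was 1.34 to 1.87 in controls, 2.33 to 4.21 under stress, 1.27 to 3.02 at the low dose and 2.29 to 2.66 at the high dose. These ratios carry the Card10 values that chose the set and are given without a test.

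Among the other 9 genes none passed the test between a dose and stress. No gene of the 13453 tested had an adjusted p under 0.05 by edgeR in any of the 4 comparisons (0%). With DESeq2, 1 gene passed between stress and control, 98 between low dose and stress, 0 between high dose and stress and 5 between the doses; no member tested was among those of the dose comparisons. Without low-dose replicate 1, edgeR called 1244 genes between low dose and stress and 99 between the doses, again without a member tested there. The smallest adjusted p of a tested member with all libraries was 0.363 between low dose and stress and 0.758 between the doses. At an unadjusted p under 0.05, edgeR called 383 genes (2.85%) between stress and control, 1796 (13.4%) between low dose and stress, 191 (1.42%) between high dose and stress and 860 (6.39%) between the doses. Among the members tested, 1 of 9 was under 0.05 between low dose and stress, 0 of 9 between high dose and stress and 0 of 10 between the doses. No member had groups without overlap between low dose and stress (11.9% of all genes) or between high dose and stress (5.75%).

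**Figure D2:**
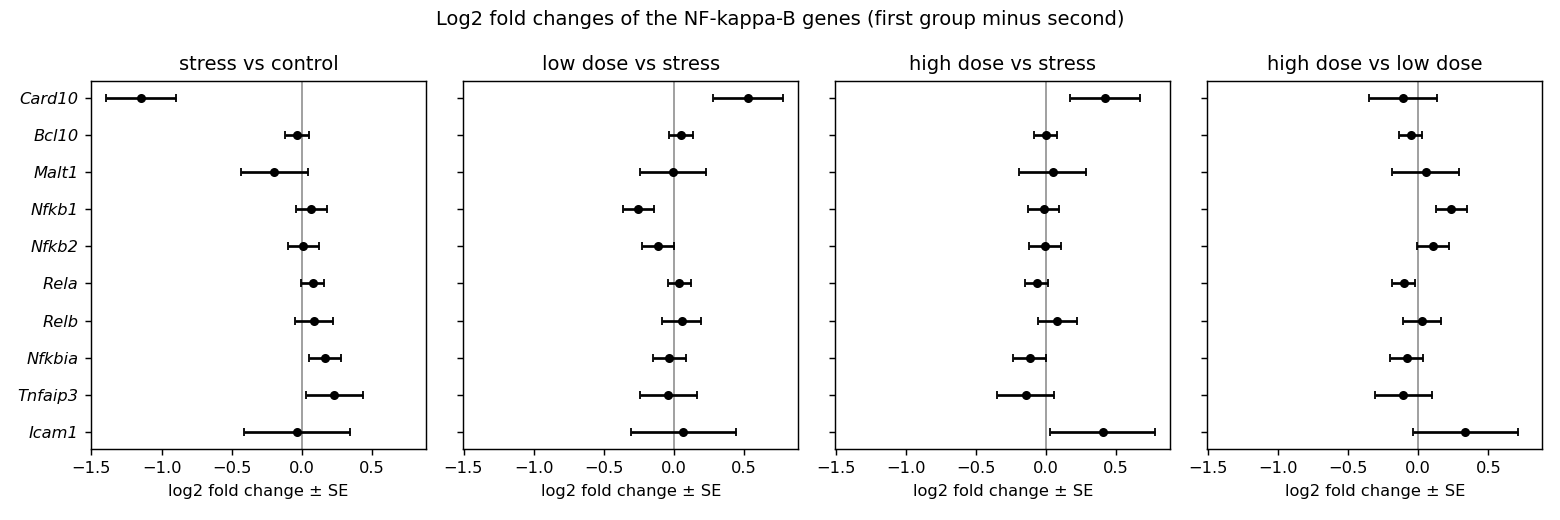
Log2 fold change of each gene (points, horizontal axis) with bars of 1 SE, in a panel for each of the 4 comparisons; values of stress against control and those of Card10 against stress are descriptions without a test. Card10 stands at -1.15 in the comparison of stress with control, and Icam1 has the longest bars, with an SE of 0.37 to 0.38.

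The member under 0.05 was Nfkb1, which encodes p105, the precursor of p50. It stood at 175, 177 and 165 CPM in controls and at 186, 184 and 172 CPM under stress. In the low-dose libraries it stood at 174, 124 and 157 CPM and in the high-dose libraries at 179, 176 and 180 CPM. Low-dose replicate 1 overlapped the stress group, and low-dose replicate 2 was the lowest of all 12. The log2 fold change between low dose and stress was -0.25 (SE 0.11, 95% interval -0.50 to -0.01, unadjusted p = 0.0424), with an adjusted p of 0.363 by edgeR. It was -0.12 (adjusted p = 0.739 by edgeR) without low-dose replicate 2 and -0.36 (adjusted p = 0.0531) without low-dose replicate 1.

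Between the doses Nfkb1 was the 1 of 10 members whose groups did not overlap, as in 7.34% of all genes. The difference was 0.24 (high minus low, SE 0.11, adjusted p = 0.758 by edgeR), and 0.11 without low-dose replicate 2. The merged exons of Nfkb1 span 12061 bases, and its deviation in low-dose replicate 2 was -0.45, where the median of genes above 10000 bases was -0.34. The part of gene length in the low-dose value was not tested.

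The other subunits had close levels in the 4 groups. Nfkb2 stood at 335, 349 and 325 CPM in controls, 373, 318 and 327 under stress, 310, 272 and 359 at the low dose and 321, 341 and 351 at the high dose. The groups overlapped, and low-dose replicate 2 was the lowest library. Nfkb2 had a log2 fold change of 0.01 (SE 0.11) between stress and control, -0.11 (95% interval -0.36 to 0.13) between low dose and stress, or -0.01 without low-dose replicate 2, and -0.01 (-0.25 to 0.24) between high dose and stress.

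Rela stood at 108, 110 and 110 CPM in controls, 110, 117 and 119 under stress, 110, 118 and 126 at the low dose and 115, 109 and 106 at the high dose. Its groups overlapped within a narrow band. Its log2 fold change was 0.08 (SE 0.08) between stress and control, 0.04 (95% interval -0.14 to 0.22) between low dose and stress and -0.07 (-0.24 to 0.11) between high dose and stress. The last interval spans folds of 0.844 to 1.08.

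Relb, the partner of p52, stood at 29.2, 35.2 and 34.8 CPM in controls, 35.5, 37.0 and 32.8 under stress, 33.1, 43.9 and 32.3 at the low dose and 41.4, 35.8 and 34.0 at the high dose. Its highest value, unlike those of Nfkb1 and Nfkb2, fell in low-dose replicate 2. Its log2 fold change was 0.09 (SE 0.14) between stress and control, 0.05 (95% interval -0.24 to 0.35) between low dose and stress and 0.08 (-0.22 to 0.38) between high dose and stress. Per length, the ratio of Nfkb2 to Nfkb1 lay between 2.20 and 2.90 in all libraries and that of Relb to Rela between 0.309 and 0.432.

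**Figure D3:**
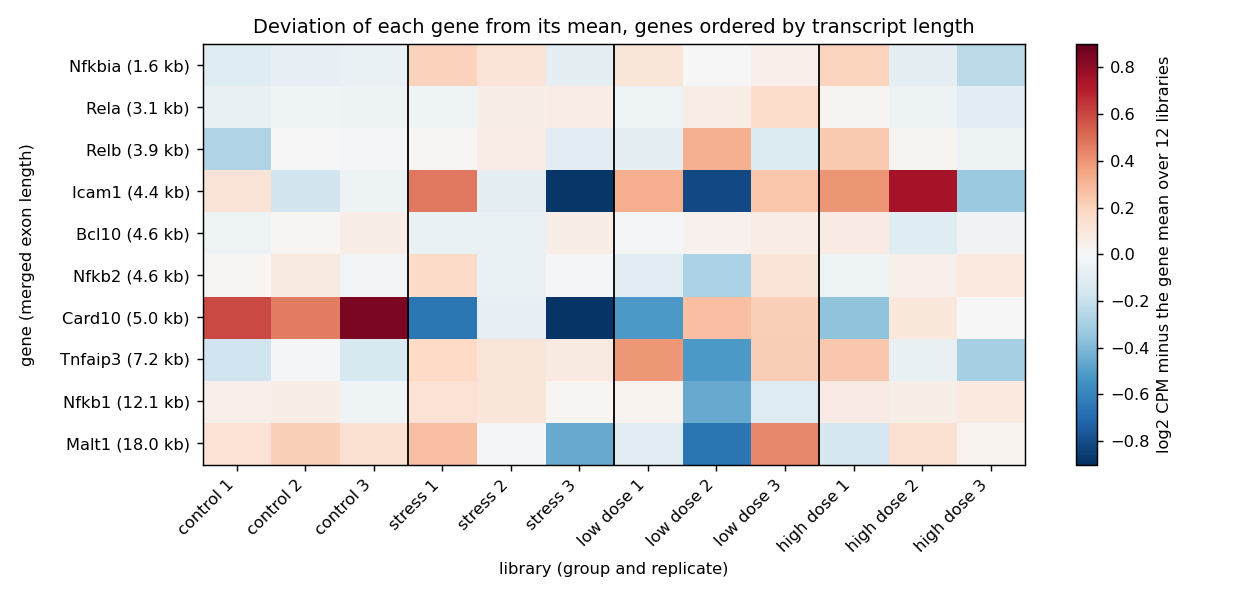
Deviation of each gene's log2 CPM from its mean over the 12 libraries (colour, log2 units), with genes as rows ordered by merged exon length and libraries as columns. Malt1 and Nfkb1, the longest genes, stand at -0.66 and -0.45 in low-dose replicate 2, where the shorter Icam1 and Tnfaip3 stand at -0.81 and -0.52. Card10 is at 0.46 or above in the 3 controls.

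The mean levels of both inhibitor genes were higher under stress than in controls, with overlap for Nfkbia. Nfkbia stood at 83.1, 85.4 and 86.0 CPM in controls and at 104, 97.2 and 84.3 CPM under stress. It stood at 96.6, 89.3 and 92.7 CPM at the low dose and at 103, 84.3 and 75.7 CPM at the high dose. Stress replicate 3 lay among the controls, and the high-dose group spanned them. For Nfkbia the log2 fold change was 0.16 (SE 0.12) between stress and control, -0.03 (95% interval -0.29 to 0.22) between low dose and stress and -0.12 (-0.37 to 0.14) between high dose and stress.

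Tnfaip3, which encodes the ubiquitin-editing inhibitor A20, stood at 19.3, 21.6 and 19.9 CPM in controls and at 24.7, 23.5 and 23.1 CPM under stress. Those groups did not overlap, which was so for 2 of the 10 members, Card10 and Tnfaip3, and for 14.1% of all genes. The low-dose libraries stood at 28.7, 15.2 and 25.5 CPM and the high-dose libraries at 25.9, 20.8 and 17.8 CPM, and both spanned the stress values. As a log2 fold change, Tnfaip3 was at 0.23 (SE 0.20) between stress and control, -0.04 (95% interval -0.48 to 0.40) between low dose and stress and -0.15 (-0.59 to 0.29) between high dose and stress.

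Icam1, an adhesion molecule that binds leukocyte integrins and a classical NF-kappa-B target, varied most. It stood at 11.6, 9.53 and 10.4 CPM in controls, 14.9, 10.1 and 5.79 under stress, 13.4, 6.04 and 12.8 at the low dose and 14.1, 18.1 and 8.48 at the high dose. The 3 stressed groups each contained values above and below all controls. The log2 fold change of Icam1 was -0.03 (SE 0.38) between stress and control, 0.07 (95% interval -0.75 to 0.89) between low dose and stress and 0.40 (-0.42 to 1.22) between high dose and stress, the last spanning folds of 0.75 to 2.33. The high-dose value was 0.13 without stress replicate 3, 0.14 without high-dose replicate 2 and 0.77 without stress replicate 1.

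Icam1 moved with the leukocyte markers across libraries. Among 6 relations examined over the 12 libraries, with p-values from 100000 permutations, Icam1 and the leukocyte score (10 genes tested) had a Pearson r of 0.77 (permutation p = 0.00351, adjusted p = 0.0211) and a Spearman rho of 0.79 (p = 0.00359, adjusted p = 0.0215). Without stress replicates 1 and 3, the 2 farthest from the median score, r was 0.66 (permutation p = 0.0345, adjusted p = 0.207). With each group centred on its own mean r was 0.85 (adjusted permutation p = 0.00378). Leukocyte markers summed to 601 to 662 TPM in controls, 476 to 883 under stress, 406 to 777 at the low dose and 565 to 785 at the high dose. Markers of endothelium, 1 of several other cell types that can carry Icam1, summed to 38.6 to 79.3, 42.6 to 81.0, 29.3 to 63.0 and 61.9 to 86.0 TPM in the same order. The part of these cells in the Icam1 values was not tested.

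The inhibitor genes Nfkbia and Tnfaip3 also varied together. Over the 12 libraries their log2 CPM had a Pearson r of 0.66 (permutation p = 0.0205, adjusted p = 0.0614) and a Spearman rho of 0.71 (p = 0.0115, adjusted p = 0.0344). Without stress replicate 1 and high-dose replicate 1, the 2 farthest from the median of Nfkbia, r was 0.59 (permutation p = 0.0710, adjusted p = 0.213), and without low-dose replicate 2 it was 0.84. Within the 9 libraries of stressed mice r was 0.63 (permutation p = 0.0713, adjusted p = 0.107). Nfkb2 and Relb had an r of -0.56 (permutation p = 0.0624, adjusted p = 0.125), which was -0.16 without low-dose replicate 2.

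**Figure D4:**
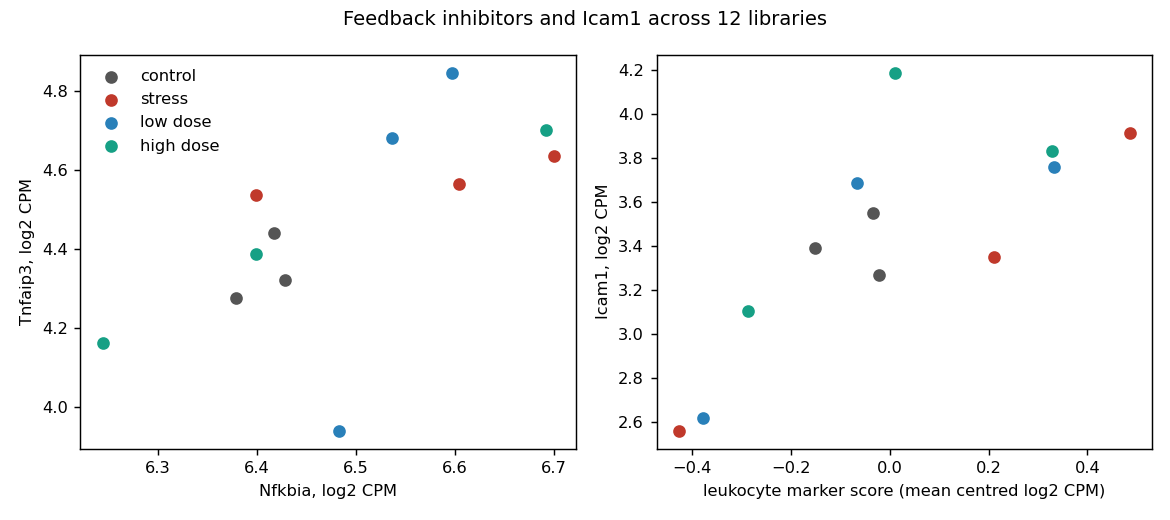
Each point is a library, coloured by group, with log2 CPM of Nfkbia against Tnfaip3 and the leukocyte score against log2 CPM of Icam1. Low-dose replicate 2 is the lowest point for Tnfaip3 at 15.2 CPM, and stress replicate 3 is the lowest for Icam1 at 5.79 CPM.

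The wider pathway was read from 6 lists of 105 further genes, of which 104 were in the tables and 93 were tested; Ccl20 was not analysed here. None of the 93 passed edgeR's adjusted test in any comparison. Between stress and control, 55 were higher and 38 lower with a median log2 fold change of 0.03, beside 0.01 over all genes. Of the 93, 4 were under an unadjusted p of 0.05, beside 2.85% of all genes. Between low dose and stress, 42 were higher and 51 lower (median -0.03, beside -0.00 over all genes). In that comparison 12 of the 93 were under 0.05, beside 13.4% of all genes. Between high dose and stress, 48 were higher and 45 lower (median 0.01, beside -0.00), with 0 under 0.05, beside 1.42%. Between the doses, 59 were higher and 34 lower at the high dose (median 0.05, beside 0.00). There 9 of the 93 were under 0.05, beside 6.39% of all genes.

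Receptors and scaffolds come first in the pathway. F2r, the thrombin receptor PAR1, which signals through CARD10, stood at 54.7, 56.2 and 63.8 CPM under stress. At the low dose it stood at 52.1, 43.9 and 42.3 CPM. Its log2 fold change was -0.34 (SE 0.11, adjusted p = 0.299 by edgeR). Of the 14 tested genes of this list, 5 were higher and 9 lower between low dose and stress.

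The IKK kinases and ubiquitin enzymes stayed close to the stress level, with 6 of 22 higher and 16 lower between low dose and stress and a median log2 fold change of -0.09. Tbk1, an IKK-related kinase, was at -0.23 (SE 0.08, adjusted p = 0.316 by edgeR) and Traf3, which restrains the alternative branch, at -0.22 (SE 0.10). In the same comparison, 1 of 7 MALT1 substrates was higher and 6 were lower. Cyld, Rbck1 and Map3k14 count in both of these lists. Over all genes tested, 6717 were higher and 6736 lower. Rc3h1, the RNA-binding protein Roquin-1, was at -0.17 (SE 0.10) and Map3k14, the kinase NIK of the alternative branch, at -0.28 (SE 0.21).

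Rel, which encodes the subunit c-Rel, stood at 21.3, 20.6 and 21.8 CPM under stress and at 19.2, 12.6 and 14.6 CPM at the low dose. Those groups did not overlap, as in 11.9% of all genes, and the high-dose libraries at 21.7, 17.4 and 20.9 CPM overlapped the stress group. The log2 fold change between low dose and stress was -0.46 (SE 0.15, adjusted p = 0.304 by edgeR). Bcl3, a nuclear I-kappa-B protein, was at 0.09 (SE 0.16) for the low dose and 0.27 (SE 0.16) for the high dose against stress.

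Of the 32 other NF-kappa-B targets tested, 20 were higher and 12 lower both between stress and control and between low dose and stress, comparisons that share the stress libraries. Ier3, an early response gene, stood at 5.54, 7.29 and 12.5 CPM under stress and at 14.7, 16.8 and 52.1 CPM at the low dose, a log2 fold change of 1.72 (SE 0.48, adjusted p = 0.296 by edgeR). Cd83, a surface protein of activated immune cells, stood at 6.47, 7.81 and 5.67 CPM under stress and at 4.38, 2.53 and 2.47 CPM at the low dose, a log2 fold change of -1.09 (SE 0.33, adjusted p = 0.296). Ier3 and Cd83 thus lay on opposite sides of stress without overlap, which was so for 11.9% of all genes in either direction. They were named for the smallest unadjusted p of their list against stress, a choice that favours such separation. Of the 16 receptors and adaptors that activate NF-kappa-B, 7 were higher and 9 lower; Il1r1, the interleukin-1 receptor, was at -0.45 (SE 0.19) and Tradd, the adaptor of the TNF receptor, at 0.29 (SE 0.13), both between low dose and stress.

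The genes with the pattern most like Card10 were sought by Pearson r of log2 CPM over the 12 libraries among 11773 tested genes with a mean FPKM of at least 1. The 5 highest were Fgfr1, a growth factor receptor (r = 0.92), Lman1l, a lectin-like gene (0.91), Emd, which encodes the nuclear envelope protein emerin (0.91), Wnt10a, a Wnt ligand (0.90), and Chst1, a sulfotransferase (0.90). Over the 9 libraries of stressed mice, which leave out the step from control to stress, r was 0.86, 0.92, 0.96, 0.97 and 0.88 in that order. These are descriptions of genes picked from many for their likeness, and carry no test.

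Their levels fell short of control to different degrees. Fgfr1 stood at 73.5% of the control mean under stress, Lman1l at 33.3%, Emd at 75.4%, Wnt10a at 54.3% and Chst1 at 67.6%. The value of Lman1l rests on few counts, with means of 2.73 CPM in controls and 0.91 CPM under stress. Wnt10a ran from 5.69 to 6.03 CPM in controls, from 1.72 to 4.78 under stress, from 2.92 to 5.81 at the low dose and from 3.78 to 5.35 at the high dose. Its low-dose group reached the control range, as did those of Lman1l, Emd and Chst1, unlike those of Fgfr1 and Card10. At the high dose the groups of Emd and Chst1 reached it.

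**Figure D5:**
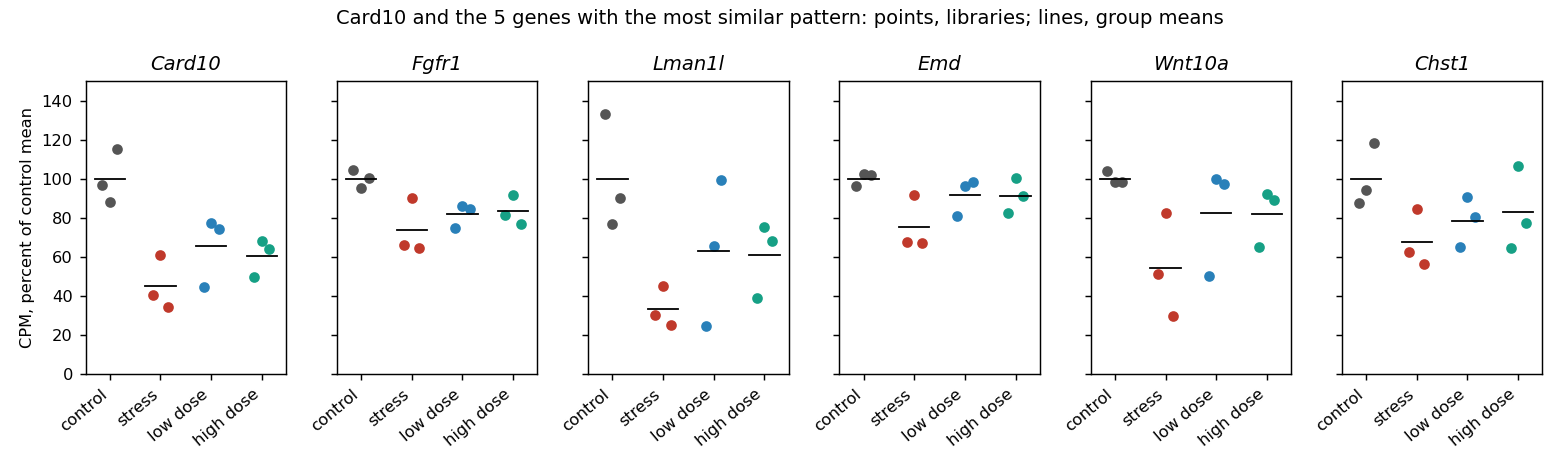
CPM as a percentage of the control mean (vertical axis, from 0) by group (horizontal axis) for Card10 and the 5 genes most like it, with points for libraries and lines for group means. The line of the stress group lies at 45.2% for Card10 and between 33.3% and 75.4% for the other genes.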

How the data were processed

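Messenger RNA was measured in 12 libraries of mouse tumour tissue, 3 in each of 4 groups taken from the labels. Per the labels' protocols, RNA with an integrity number above 7 was poly(A) selected and made into stranded paired-end libraries. Per the submitters' processing notes, cutadapt 1.9, HISAT2 2.0.4, StringTie 1.3.4d, GRCm38.p6, DESeq2 and edgeR were used; the annotation and counting options are not given in the sources used here. The deposited estimated counts per gene carry no scaling by the authors, and 11.7% to 12.5% of the values in a library are not whole; they were rounded, whereas the design had assumed counts. The deposited FPKM and TPM values are the authors' scaling of expression to transcript length and depth. FPKM served only as a minimum of 1 for genes compared with Card10, and TPM for levels between genes and for marker sums. The tables hold 17875 genes, with 26 symbols restored from dates and no mitochondrial gene.

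Genes were filtered with filterByExpr at a minimum count of 10. One edgeR 4.0.16 quasi-likelihood model with robust fitting and TMM factors covered all 12 libraries (R 4.3.3, 8 residual degrees of freedom), with Benjamini-Hochberg adjustment over 13453 genes, a threshold of 0.05 and 2-sided tests. The same pipeline was tested on simulated data. CPM used TMM-scaled library sizes, with a prior count of 2 on the log2 scale. The median SE over all genes was 0.16 for the log2 difference of high dose and stress. Correlations used permutations, 2-sided, adjusted over 6 relations, of which the 2 with Card10 are given without a test, with SciPy 1.17.1. Intervals come from the moderated degrees of freedom. Pairs of libraries of a group differed by far more than counting noise, so none was treated as a duplicate. Relative to counting noise, squared differences ran from 6.34 to 9.16 in controls and from 18.6 to 32.8 under stress. They ran from 51.3 to 77.1 at the low dose and from 18.3 to 47.7 at the high dose. The model shared its estimate of spread across these unequal groups.

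The members and lists were chosen with earlier results of these data known. Named were all members; from each list, genes past the threshold or, where none passed, the 2 with the smallest unadjusted p over both comparisons of a dose with stress; and the 5 genes most like Card10. A gene that this rule names is not reported here. Alternatives were RLE factors, DESeq2 1.42.0, limma-voom 3.58.1 with quality weights, a minimum count of 50 or no filter, fits on just the 2 groups compared, a block for the replicate number, the muscle score as a covariate, each library left out and, chosen after seeing the data, omission of the 3 muscle-rich libraries and correlations without the controls or low-dose replicate 2.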

Additional observations from a re-analysis of the deposited data

How the results depend on the processing

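In the comparisons of a dose with stress and between the doses, no member tested passed the adjusted threshold under any alternative run. The number of genes called over all tested moved with DESeq2, to 1 for stress against control, 98 for low dose against stress and 5 between the doses, and when a library was left out it ranged from 0 to 1244 for low dose against stress and from 0 to 99 between the doses, both highest without low-dose replicate 1. Other alternatives called 0. With the replicate number as a replicate block 0 genes were called in each comparison and Nfkb1 was at -0.26 between low dose and stress (adjusted p = 0.387); same-numbered libraries correlated at -0.45 to 0.42 and 5 of 12 libraries correlated best with their own number, so the numbers were not taken as pairs.

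The following log2 fold changes changed sign under an alternative, and the cause was not tested. Between low dose and stress, Malt1 was at 0.011 with RLE factors, 0.0112 with DESeq2 and 0.0089 with no filter, and Icam1 at -0.13 with limma-voom. Between high dose and stress, Bcl10 was at 0.0025 with RLE factors, 0.0016 with DESeq2, 0.019 with limma-voom and 0.017 with the muscle covariate, and Malt1 at -0.057 with limma-voom and -0.078 with the muscle covariate. Without the 3 muscle-rich libraries, Rela was at -0.012 and Icam1 at -0.076 between low dose and stress, Bcl10 at 0.039 and Malt1 at -0.021 between high dose and stress, and Bcl10 at 0.0057 and Relb at -0.029 between the doses.
With 1 library left out, values between low dose and stress ranged from -0.32 to 0.24 for Malt1, -0.012 to 0.085 for Rela, -0.093 to 0.13 for Relb, -0.095 to 0.033 for Nfkbia, -0.22 to 0.20 for Tnfaip3 and -0.20 to 0.44 for Icam1. Between high dose and stress they ranged from -0.054 to 0.050 for Bcl10, -0.11 to 0.23 for Malt1, -0.041 to 0.0034 for Nfkb1, -0.053 to 0.065 for Nfkb2 and -0.0069 to 0.14 for Relb. Between the doses they ranged from -0.32 to 0.025 for Card10, -0.18 to 0.36 for Malt1, -0.061 to 0.18 for Relb, -0.22 to 0.013 for Nfkbia and -0.34 to 0.078 for Tnfaip3. Between stress and control, with no test, they ranged from -0.40 to 0.25 for Icam1 and -0.061 to 0.057 for Nfkb2, and Icam1 was at 0.066 with limma-voom, 0.12 with the muscle covariate and 0.043 without the 3 muscle-rich libraries.

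Of the correlations, Tnfaip3 with Nfkbia was 0.85 on the log2(TPM + 1) scale (adjusted permutation p = 0.00102). With group-centred log2 CPM it was 0.60 (adjusted permutation p = 0.0505). By TPM, 8 members were lowest in low-dose replicate 2, against 4 by CPM, and the part of this in the value of 0.85 was not tested. Group-centred values gave 0.64 for Icam1 with Nfkbia (adjusted permutation p = 0.0457) and -0.62 for Relb with Nfkb2 (0.0474). For Card10, whose values carry no test, group-centred values gave 0.68 with the epithelial score and -0.26 with Bcl10. Without centring, r with the epithelial score was 0.69 in stressed mice, and 0.49 there without the 2 farthest libraries. With Bcl10, r without centring was -0.027 on the log2(TPM + 1) scale. Icam1 with the leukocyte score was 0.66 without the 2 farthest libraries (adjusted permutation p = 0.207). Depth limits Card10, Malt1, Tnfaip3 and Icam1 most, as the members with the fewest counts.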
